A study of Homo sapiens with 15 samples.

Results

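The genes described here encode the acid hydrolases of the lysosome, the membrane proteins and cofactors that serve them, the vacuolar proton pump, the TFEB family of transcription factors, and the receptors and core machinery of autophagy. The members were 34 genes taken by name together with every protein-coding gene whose symbol begins with ATP6V0 or ATP6V1, the subunits of the pump, of which 18 were listed. In all, 52 members appeared in at least 1 of 3 expression tables that together held 16109 genes. PC3 listed 47 members, the P493-6 table of MYCi975 listed 47, that of tetracycline listed 49, and 43 members were in every table. By role there were 3 transcription factors, 14 hydrolases, 7 membrane proteins and cofactors, 2 autophagy receptors, 8 autophagy core genes and 18 pump subunits.

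The study asked whether MYCi975, a compound directed at the MYC transcription factor, acts on MYC target genes, and read the RNA of 2 human lines by sequencing. PC3, a prostate cancer line with high MYC of its own, was given MYCi975 at 8 µM in DMSO for 24 h. Its control was DMSO, per the protocol. P493-6, a B cell line that the labels call a MYC-overexpressing Burkitt lymphoma line, carries an introduced MYC gene that tetracycline switches off. It was given MYCi975 at 6 µM in DMSO for 24 h or tetracycline at 0.1 µg/ml in water for 24 h. Both treatments share the same controls, so tetracycline has no control in water alone. The labels list the controls as untreated, whereas the protocol says that they were given DMSO. If they were untreated, each contrast of MYCi975 with control also includes DMSO. Each of the 5 groups had 3 libraries. MYC itself was at 152, 145 and 149.8 CPM (counted reads of a gene per 1000000 of the library) in the tetracycline libraries, against 4692, 4701 and 4791 CPM in the P493-6 controls, a log2 fold change of −4.98 (adjusted p = 2.76e-49). With MYCi975 the MYC transcript was not lower: it was at 378, 359 and 386 CPM in PC3 with MYCi975, against 301, 300.4 and 309 CPM in PC3 controls, and at 5138, 5084 and 5132 CPM in P493-6 with MYCi975, against the same controls as above. By limma it was higher in both lines, with a log2 fold change of 0.30 in PC3 (adjusted p = 3.99e-14) and 0.11 in P493-6 (adjusted p = 0.00535).

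Lysosomes break down proteins, lipids, glycans and worn cell parts that reach them by endocytosis and autophagy. Their hydrolases need an acid interior, which the vacuolar ATPase keeps by driving protons across the membrane with ATP. TFEB, TFE3 and MITF bind E-box sequences containing CACGTG in the promoters of many of these genes and raise their transcription when nutrient signalling at the lysosome falls, and MYC with its partner MAX also recognises CACGTG.

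Depth was 8162582 to 15926008 counted reads per library, so that 1 CPM stands for 8.16 to 15.9 reads and fold changes of members at a few CPM are imprecise. All 8 epithelial and prostate line markers were listed in PC3, with summed levels of 1773 to 1879 CPM with MYCi975 and 2129 to 2166 CPM in controls, and 1 of 8 B cell markers was listed there, at no more than 4.27 CPM. All 8 B cell markers were listed in P493-6. Fold changes are on the log2(CPM + 1) scale with their standard error (SE), from limma fitted across all genes of a table, and a gene is called when its two-sided Benjamini-Hochberg adjusted p over that table is below 0.05. Nothing in the labels ties the 3 libraries in each group to separate cultures, and the spread behind the p-values may therefore be technical only. CPM is relative to all counted RNA, so a change in RNA per cell or in the number of cells cannot be seen.

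The promoters were searched for the E-box because the transcription factors among the members bind it. In the RefSeq promoter table (GRCh38.p14, the 250 bases before each annotated start, both strands), 39 of the 52 members had an entry, which is 75.0%. Too few members were covered for a test of members with a motif against those without, and none was made. Only counts of calls are given, in a later paragraph. CACGTG stood in the promoters of 10 members, 25.6% of those with an entry, against 7.73% of 27305 genes. The longer palindrome TCACGTGA, which contains CACGTG, stood in 6 members (15.4%, against 1.04% of all genes). TGACNNNGC, the core of the sites of NRF2 and related factors, stood in 14 (35.9%, against 13.2%), and TGATGNAA, a form bound by ATF4 with C/EBP partners, in 0 (against 3.89%). The 10 members with CACGTG were the hydrolases CTSA, CTSD, GAA and NEU1, the membrane proteins LAMP1 and MCOLN1, and the pump genes ATP6V0B, ATP6V0D1, ATP6V0E2 and ATP6V1G1. The 7 promoters below belong to those of the 10 whose values are given by library in the following paragraphs. Each is written in the direction of transcription, with CACGTG in capitals.
NEU1 (chr6:31862822-31863071, minus strand): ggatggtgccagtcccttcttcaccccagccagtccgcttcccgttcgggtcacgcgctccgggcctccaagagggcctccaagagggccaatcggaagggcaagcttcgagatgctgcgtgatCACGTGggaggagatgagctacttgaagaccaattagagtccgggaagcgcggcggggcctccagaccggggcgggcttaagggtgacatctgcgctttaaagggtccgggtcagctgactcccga
GAA (chr17:80101331-80101580, plus strand): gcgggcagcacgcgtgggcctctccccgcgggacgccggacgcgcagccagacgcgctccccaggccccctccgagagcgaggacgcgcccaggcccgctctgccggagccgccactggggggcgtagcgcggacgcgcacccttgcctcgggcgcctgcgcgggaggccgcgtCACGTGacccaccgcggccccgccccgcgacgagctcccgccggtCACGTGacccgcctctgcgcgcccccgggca
LAMP1 (chr13:113296989-113297238, plus strand): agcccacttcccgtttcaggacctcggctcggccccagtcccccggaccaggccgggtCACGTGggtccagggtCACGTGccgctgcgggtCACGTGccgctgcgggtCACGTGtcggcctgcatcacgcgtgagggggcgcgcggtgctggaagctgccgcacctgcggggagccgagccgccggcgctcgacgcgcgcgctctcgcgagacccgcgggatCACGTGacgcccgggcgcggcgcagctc
MCOLN1 (chr19:7522374-7522623, plus strand): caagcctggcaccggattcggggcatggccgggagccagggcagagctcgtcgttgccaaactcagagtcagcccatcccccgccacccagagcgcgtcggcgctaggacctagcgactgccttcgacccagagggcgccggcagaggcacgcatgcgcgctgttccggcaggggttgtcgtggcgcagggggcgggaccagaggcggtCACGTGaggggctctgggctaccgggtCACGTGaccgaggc
ATP6V1G1 (chr9:114587519-114587768, plus strand): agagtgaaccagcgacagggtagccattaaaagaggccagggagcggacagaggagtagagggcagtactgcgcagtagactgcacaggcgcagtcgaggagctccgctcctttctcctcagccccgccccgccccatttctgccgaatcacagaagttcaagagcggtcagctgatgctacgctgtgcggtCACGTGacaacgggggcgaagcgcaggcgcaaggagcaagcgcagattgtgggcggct
ATP6V0D1 (chr16:67481158-67481407, minus strand): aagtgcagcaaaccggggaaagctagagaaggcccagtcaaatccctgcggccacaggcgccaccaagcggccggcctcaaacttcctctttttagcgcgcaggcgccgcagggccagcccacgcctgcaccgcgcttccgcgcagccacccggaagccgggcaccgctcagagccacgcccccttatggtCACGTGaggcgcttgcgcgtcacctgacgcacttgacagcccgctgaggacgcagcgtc
ATP6V0B (chr1:43974710-43974959, plus strand): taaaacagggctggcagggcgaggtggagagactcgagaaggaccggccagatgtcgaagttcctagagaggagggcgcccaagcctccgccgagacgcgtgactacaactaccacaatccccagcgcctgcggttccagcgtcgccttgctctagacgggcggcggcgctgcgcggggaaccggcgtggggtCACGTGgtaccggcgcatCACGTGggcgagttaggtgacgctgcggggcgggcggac
LAMP1 held 5 copies, GAA, MCOLN1 and ATP6V0B held 2 each, and NEU1, ATP6V1G1 and ATP6V0D1 held 1 each. The starts are those of RefSeq and differ from the gene positions in the deposited data. By the deposited positions the whole ATP6V0B stretch lies inside the gene, and so does the CACGTG of ATP6V0D1. The stretches of NEU1, GAA and ATP6V1G1 overlap their genes in part. A match to these letters is a description of the sequence and no evidence that a factor was bound.

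Most of these genes rose in PC3 with MYCi975. Of 47 members, 33 were called higher and 4 lower, where 29.0% and 30.1% of all 13751 genes were called higher and lower. Without ATP6V0D2, which was listed through the treated libraries alone and had to differ, 32 of 46 were higher and 4 lower. The median log2 fold change of the members was 0.30, against −0.00 for all genes. SQSTM1, the autophagy receptor p62, stood at 2.79 times its control level, the sialidase NEU1 at 1.99 times and the cholesterol transporter NPC1 at 1.85 times, and 7 of 7 membrane proteins and cofactors rose. In P493-6 with the same compound fewer were called: 9 of 47 members were called higher and 8 lower, where 10.6% and 18.0% of 12998 genes were called higher and lower, and no member changed by more than 0.43 on the log2 scale. The median of the members was 0.05, against −0.04 for all genes. With TMM scaling of the libraries the split over all genes in this comparison was 1822 higher and 1687 lower, in place of 1375 and 2338, and that of the members was 13 and 5.

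With tetracycline, which turns off the introduced MYC gene, these genes moved in both directions. So did the table as a whole, in which 78.1% of all genes were called in either direction. Of 49 members, 25 were called higher and 15 lower, where 36.2% and 41.9% of 13703 genes were called higher and lower. The median was 0.35, against −0.05 for all genes, and it was 0.18 over the members with a mean of at least 5 CPM. With TMM scaling the split of the members was 31 higher and 13 lower, and that of all genes 5387 and 5360, in place of 4957 and 5745. Without GABARAPL1 and ATP6V1G2, which were listed through the treated libraries alone and had to differ, 23 of 47 members were higher and 15 lower. TFEB and TFE3, both autophagy receptors and the cathepsins CTSZ and CTSH rose, while GAA, CTSC and 9 of the 17 listed pump subunits fell. The B cell markers moved with this treatment: all 8 rose, with a median of 1.51, and their summed level was 11670 to 12080 CPM with tetracycline, against 3958 to 4191 CPM in controls. It was 4494 to 4814 CPM with MYCi975, where 3 of the 8 were called higher. The part of that shift in the changes of the lysosomal genes was not tested.

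**Figure D1:**
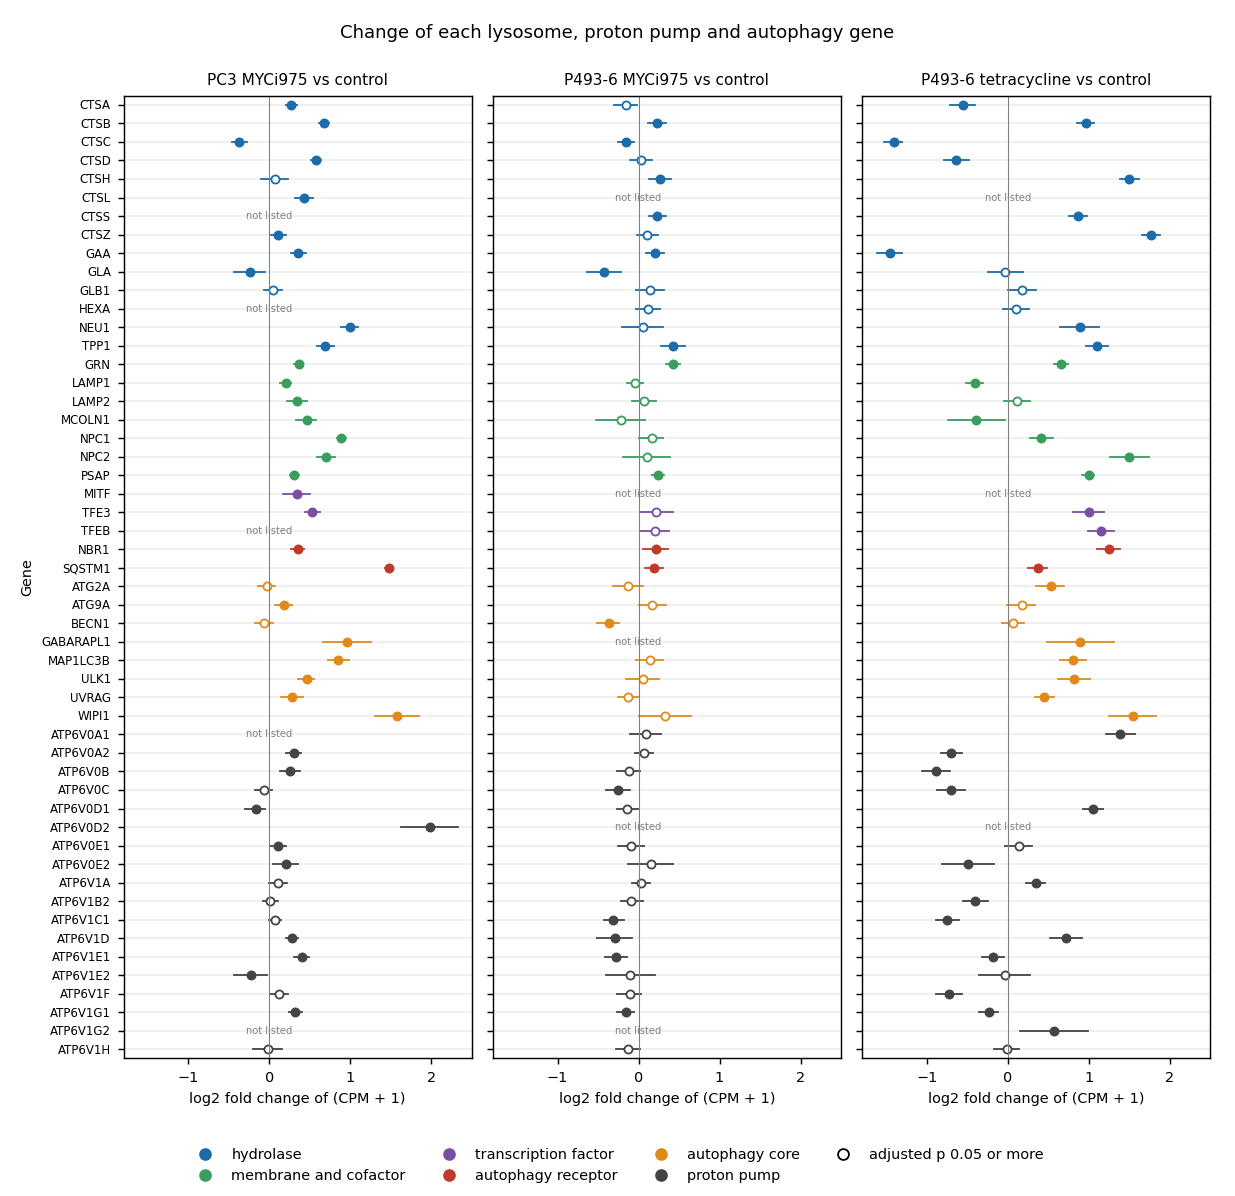
Log2 fold change of log2(CPM + 1) on the horizontal axis for each of the 52 members, ordered by role, in the 3 comparisons with control (points, limma estimates; bars, 95% confidence intervals; filled points, adjusted p below 0.05). In PC3 most points lie right of 0, in P493-6 with MYCi975 all lie within 0.43 of 0, and with tetracycline they spread from −1.45 to 1.77.

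The transcription factors of the family were higher wherever they were called. TFEB, their best studied member for lysosomal genes, was listed in P493-6 alone, with 64.8, 62.9 and 61.3 CPM with tetracycline and 34.98, 29.02 and 32.9 CPM with MYCi975, against 31.99, 27.8 and 24.4 CPM in controls. The tetracycline libraries lay far above the other 6, while those of MYCi975 overlapped the controls. The change was 1.15 with tetracycline (SE 0.079, adjusted p = 2.29e-16) and 0.20 with MYCi975 (SE 0.0866, adjusted p = 0.0798). The value with MYCi975 passed the threshold with TMM scaling (0.24, adjusted p = 0.0258), and without control replicate 1 or MYCi975 replicate 2 (adjusted p = 0.0107 and 0.0284).

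TFE3, a close relative of TFEB on the X chromosome, was measured in both lines. In PC3 it stood at 87.98, 87.8 and 83.98 CPM with MYCi975, against 58.7, 58.5 and 61.2 CPM in controls, and every treated library lay above every control (log2 fold change 0.53, SE 0.0486, adjusted p = 2.42e-17). In P493-6 it stood at 29.96, 32.5 and 32.3 CPM with tetracycline and 19.4, 16.7 and 17.97 CPM with MYCi975, against 16.2, 14.2 and 15.6 CPM in controls. All 3 tetracycline libraries lay well above the controls (log2 fold change 1.00, SE 0.093, adjusted p = 1.47e-12), and the MYCi975 libraries lay just above them without passing the threshold (log2 fold change 0.22, SE 0.0994, adjusted p = 0.094); with TMM scaling they passed it (adjusted p = 0.0408). MITF, the third family member, was listed in PC3 alone, at 23.4, 22.2 and 19.4 CPM with MYCi975, against 17.9, 16.5 and 16.3 CPM in controls (log2 fold change 0.34, SE 0.0835, adjusted p = 0.000283). Its groups did not overlap.

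Among the autophagy receptors, SQSTM1 (chr5:179806398-179838078, plus strand, in hg38 as the deposited tables give gene positions) encodes p62, which ties ubiquitinated cargo to the growing autophagosome. Its levels were 2299, 2223 and 2269 CPM in PC3 with MYCi975, against 814, 792 and 829 CPM in PC3 controls (log2 fold change 1.48, SE 0.0245, adjusted p = 1.21e-71). The gap between the groups was many times the spread within either. In P493-6 they were 107, 96.7 and 95 CPM with tetracycline and 85.5, 90.8 and 87.3 CPM with MYCi975, against 75.9, 81.9 and 73.05 CPM in controls. Both treated groups lay above every control, with changes of 0.37 for tetracycline (SE 0.0588, adjusted p = 5.63e-07) and 0.19 for MYCi975 (SE 0.0551, adjusted p = 0.00702). The call with MYCi975 was lost without control replicate 3 (adjusted p = 0.0563).

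NBR1, a receptor of similar build that also collects ubiquitinated cargo, rose in all 3 comparisons. In PC3 it was at 138, 133 and 135 CPM with MYCi975, against 105, 109 and 104 CPM in controls (log2 fold change 0.35, SE 0.0408, adjusted p = 2.01e-12). In P493-6 it was at 82.3, 82.8 and 75.1 CPM with tetracycline and 39.4, 35.9 and 40.1 CPM with MYCi975, against 35.9, 34.9 and 29.2 CPM in controls. The tetracycline libraries lay far above the controls (log2 fold change 1.25, SE 0.073, adjusted p = 1.38e-18), and the MYCi975 libraries lay just above them (log2 fold change 0.21, SE 0.0778, adjusted p = 0.0405). That last call was lost without control replicate 3, MYCi975 replicate 1 or MYCi975 replicate 3 (adjusted p = 0.31, 0.122 and 0.137).

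The autophagy core genes rose in 6 of 8 in PC3 with MYCi975, where 29.0% and 30.1% of all genes were called higher and lower. With tetracycline 5 of the 7 that were listed through both groups rose, where 36.2% and 41.9% of all genes were called higher and lower. None fell in either. GABARAPL1, described below, is not counted with tetracycline. In P493-6 with MYCi975 1 of 7 fell and none rose, where 10.6% and 18.0% of all genes were called higher and lower. WIPI1, which binds phosphoinositides on the forming autophagosome, was at 8.33, 8.86 and 11.9 CPM in PC3 with MYCi975, against 2.89, 2.14 and 2.66 CPM in controls (log2 fold change 1.58, SE 0.139, adjusted p = 5.45e-18). In P493-6 it was at 13.8, 14.1 and 13.4 CPM with tetracycline and 4.36, 5.92 and 5.89 CPM with MYCi975, against 3.88, 3.36 and 5.12 CPM in controls. The tetracycline group stood clear of the rest (log2 fold change 1.54, SE 0.144, adjusted p = 1.5e-12), and the MYCi975 group overlapped the controls (log2 fold change 0.33, SE 0.162, adjusted p = 0.131). These are low levels, resting on few reads in the controls.

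MAP1LC3B encodes the LC3 protein that is joined to autophagosome membranes, and its near-identical copy MAP1LC3B2 makes its count uncertain. It was at 57.2, 53.1 and 51.5 CPM in PC3 with MYCi975, against 31.5, 29.5 and 27.2 CPM in controls (log2 fold change 0.85, SE 0.0621, adjusted p = 1.14e-22). In P493-6 it was at 54.3, 57.1 and 55.3 CPM with tetracycline and 33.02, 38.4 and 32.9 CPM with MYCi975, against 36.2, 28.9 and 29.7 CPM in controls. The tetracycline libraries did not overlap the controls (log2 fold change 0.80, SE 0.0778, adjusted p = 4.62e-12) and the MYCi975 libraries did (log2 fold change 0.14, SE 0.0823, adjusted p = 0.22). The last value passed the threshold without control replicate 1 (0.24, adjusted p = 0.0349). ULK1, the kinase that starts autophagy, was at 25.7, 28.2 and 29.9 CPM with tetracycline and 15.7, 15.99 and 15.9 CPM with MYCi975, against 17.6, 14.1 and 14.5 CPM in P493-6 controls. Only the tetracycline group of these lay apart (log2 fold change 0.82, SE 0.1, adjusted p = 1.51e-09), and in PC3 with MYCi975 ULK1 rose by 0.46 (SE 0.048, adjusted p = 1.78e-14).

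BECN1, the beclin subunit of the lipid kinase complex that seeds autophagosomes, was the core gene that fell. It was at 39.6, 42.05 and 38.6 CPM in P493-6 with MYCi975 and 53.4, 56.8 and 53.4 CPM with tetracycline, against 56.3, 50.6 and 49.7 CPM in controls. The MYCi975 group lay below all other P493-6 libraries (log2 fold change −0.37, SE 0.0677, adjusted p = 2.86e-05), whereas the tetracycline group overlapped the controls (log2 fold change 0.06, SE 0.0675, adjusted p = 0.398) and passed the threshold with TMM scaling (adjusted p = 0.0461). In PC3 it was at 51.4, 49.5 and 47.1 CPM with MYCi975, against 48.9, 51.9 and 54.7 CPM in controls, and the groups overlapped (log2 fold change −0.07, SE 0.0562, adjusted p = 0.293). Of the rest, UVRAG, a partner of beclin, changed by 0.28 in PC3 (SE 0.0671, adjusted p = 0.000199) and by 0.45 with tetracycline (SE 0.0599, adjusted p = 1.05e-08). ATG9A, a lipid scramblase, changed by 0.18 in PC3 (SE 0.051, adjusted p = 0.00193) and ATG2A, a lipid transfer protein, by 0.53 with tetracycline (SE 0.0861, adjusted p = 7.81e-07). In P493-6 ATG9A was not called, at 0.17 with MYCi975 and 0.17 with tetracycline (adjusted p = 0.118 and 0.0751). Both values passed the threshold with TMM scaling (adjusted p = 0.0423 and 0.00865).

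GABARAPL1, another membrane-conjugated protein of the LC3 family, has a near-identical pseudogene copy and its count is uncertain. In PC3 it was at 6.34, 6.16 and 5.02 CPM with MYCi975, against 3.01, 2.08 and 2.505 CPM in controls (log2 fold change 0.96, SE 0.148, adjusted p = 2.3e-08). In P493-6 it was at 1.38, 1.23 and 1.31 CPM with tetracycline, against 0.388, 0.246 and 0.102 CPM in controls. It entered the tetracycline table through the treated libraries alone, since no control library was above 1 CPM, so there it had to differ, and its rise is no added evidence.

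**Figure D2:**
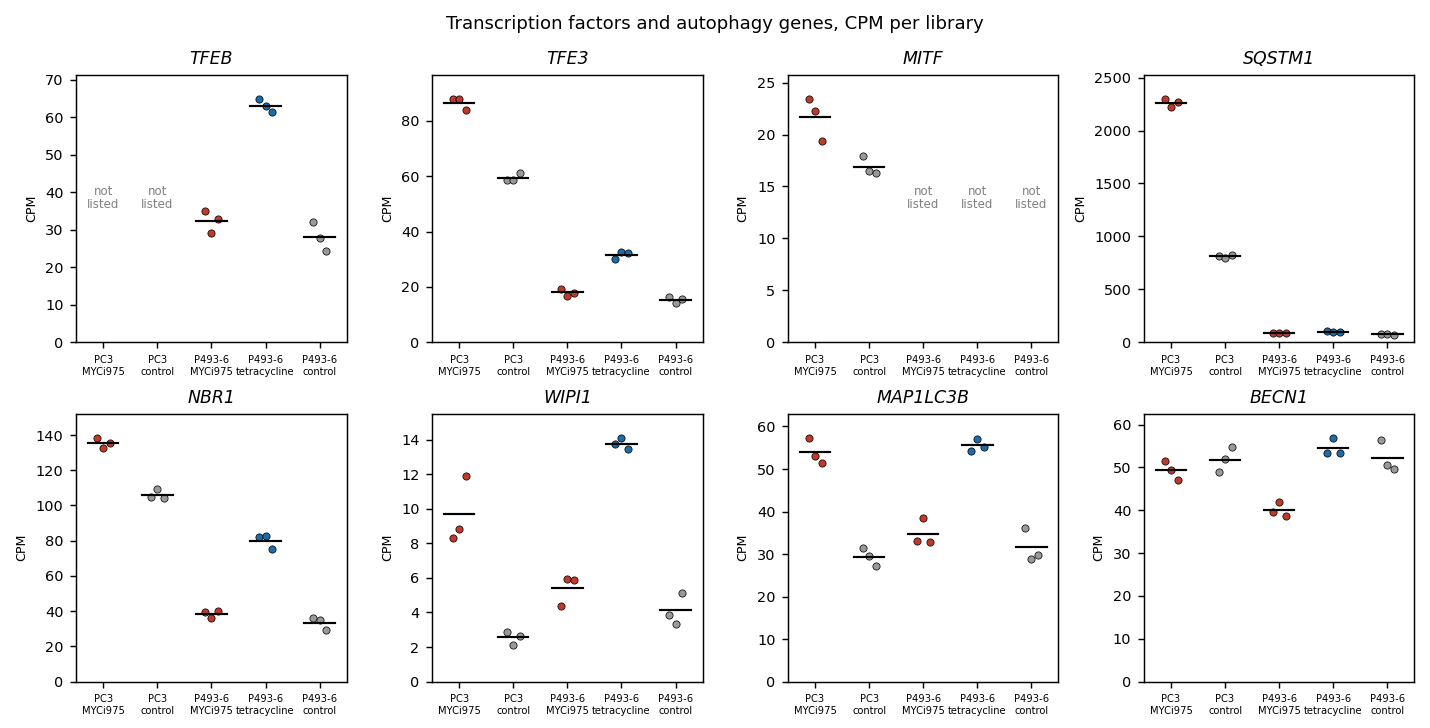
CPM per library (points) and group mean (line) of the 3 transcription factors, both autophagy receptors and 3 core genes, with treated groups left of the control of their line. SQSTM1 stands at 2223 to 2299 CPM in PC3 with MYCi975 and at 792 to 829 CPM in its controls, and TFEB is at 61.3 to 64.8 CPM with tetracycline and at 24.4 to 31.99 CPM in P493-6 controls.

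The hydrolases went up in PC3 in 8 of 12 listed and down in 2. Of all genes, 29.0% and 30.1% were called higher and lower there. NEU1 (chr6:31857659-31862906, minus strand), the sialidase that trims sialic acid from glycoproteins, was at 77.96, 72.7 and 78.04 CPM with MYCi975, against 39.9, 35.5 and 38.2 CPM in PC3 controls (log2 fold change 0.99, SE 0.055, adjusted p = 2.79e-30). TPP1, a peptidase that removes tripeptides, was at 84.9, 80.1 and 93.7 CPM with MYCi975, against 50.7, 54.6 and 53.3 CPM in controls (log2 fold change 0.69, SE 0.0516, adjusted p = 7.14e-22). Neither pair of groups overlapped. The other 6 that rose were the cysteine proteases CTSB (0.67), CTSL (0.43) and CTSZ (0.11), the aspartic protease CTSD (0.58), the glycogen-degrading GAA (0.36) and CTSA (0.27), which protects NEU1 from breakdown. The call of CTSZ was lost without control replicate 1, control replicate 3 or MYCi975 replicate 1 (adjusted p = 0.0946, 0.0858 and 0.134).

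CTSC, a dipeptidyl peptidase that activates granule proteases, fell in PC3 to 77.3, 78.5 and 77.1 CPM with MYCi975, against 99.5, 101 and 101 CPM in controls (log2 fold change −0.37, SE 0.0448, adjusted p = 8.17e-12). Treated libraries lay below all controls. GLA, the enzyme that removes terminal galactose from glycolipids, was at 14, 11.97 and 13.4 CPM with MYCi975, against 15.9, 14.7 and 16.3 CPM in controls (log2 fold change −0.24, SE 0.0935, adjusted p = 0.0223). That call was lost without control replicate 1, control replicate 3 or MYCi975 replicate 2 (adjusted p = 0.0587, 0.0864 and 0.126). CTSH and GLB1 were not called in PC3, at 0.07 (SE 0.0841, adjusted p = 0.522) and 0.05 (SE 0.0552, adjusted p = 0.449).

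In P493-6 with MYCi975, 5 of 13 listed hydrolases rose and 2 fell, where 10.6% and 18.0% of all genes were called higher and lower. TPP1 was at 46.4, 47.3 and 53.8 CPM with MYCi975, against 37.1, 36.4 and 35.4 CPM in controls (log2 fold change 0.43, SE 0.0699, adjusted p = 5.03e-06). CTSH, an aminopeptidase, was at 52.3, 49.5 and 51.8 CPM with MYCi975, against 43.2, 43.4 and 40.8 CPM in controls (log2 fold change 0.26, SE 0.0652, adjusted p = 0.00155). In both genes all treated libraries lay above all controls. CTSB and CTSS each rose by 0.23 and GAA by 0.20. GLA was at 11.4, 12.2 and 12.1 CPM with MYCi975, against 15.9, 18.3 and 15.1 CPM in controls (log2 fold change −0.43, SE 0.106, adjusted p = 0.00145), and here no omission of a library ended the call. CTSC was at 126, 131 and 124 CPM with MYCi975, against 138, 140.5 and 146 CPM in controls (log2 fold change −0.15, SE 0.0476, adjusted p = 0.0115). It lost its call with TMM scaling and without control replicate 3 (adjusted p = 0.0871 and 0.0702). NEU1, which rose in PC3, was at 8.98, 11.1 and 8.49 CPM with MYCi975, against 9.02, 8.52 and 9.82 CPM in P493-6 controls, and the groups overlapped (log2 fold change 0.05, SE 0.125, adjusted p = 0.813).

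With tetracycline 6 of 13 hydrolases rose and 4 fell, where 36.2% and 41.9% of all genes were called higher and lower, and their changes ran from −1.45 to 1.77. CTSZ, a carboxypeptidase, was at 163, 159 and 174 CPM with tetracycline, against 48.9, 48.5 and 46.04 CPM in controls (log2 fold change 1.77, SE 0.0559, adjusted p = 1.14e-27). CTSH was at 129, 118 and 119 CPM with tetracycline, against 43.2, 43.4 and 40.8 CPM in controls (log2 fold change 1.5, SE 0.06, adjusted p = 3.56e-24). Every tetracycline library lay far above every control in both genes. TPP1 rose by 1.1 (SE 0.0648, adjusted p = 1.1e-18), CTSB by 0.97, NEU1 by 0.89 and CTSS, a protease of antigen presentation, by 0.87. GAA was at 22.96, 28.1 and 23.9 CPM with tetracycline, against 69.4, 72.8 and 67.5 CPM in controls (log2 fold change −1.45, SE 0.0765, adjusted p = 3.21e-20). CTSC was at 54.4, 49.5 and 53.7 CPM with tetracycline, against 138, 140.5 and 146 CPM in controls (log2 fold change −1.41, SE 0.0567, adjusted p = 3.66e-24). Both fell far below their controls, with no overlap. CTSD changed by −0.64 (SE 0.0772, adjusted p = 1.35e-09) and CTSA by −0.55 (SE 0.0772, adjusted p = 3.15e-08). The general proteases CTSB and CTSD thus went in opposite directions. GLA, GLB1 and HEXA, a subunit of hexosaminidase, were not called, at −0.03, 0.18 and 0.10 (adjusted p = 0.812, 0.0583 and 0.231), and GLB1 and HEXA passed the threshold with TMM scaling (adjusted p = 0.00644 and 0.0322).

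**Figure D3:**
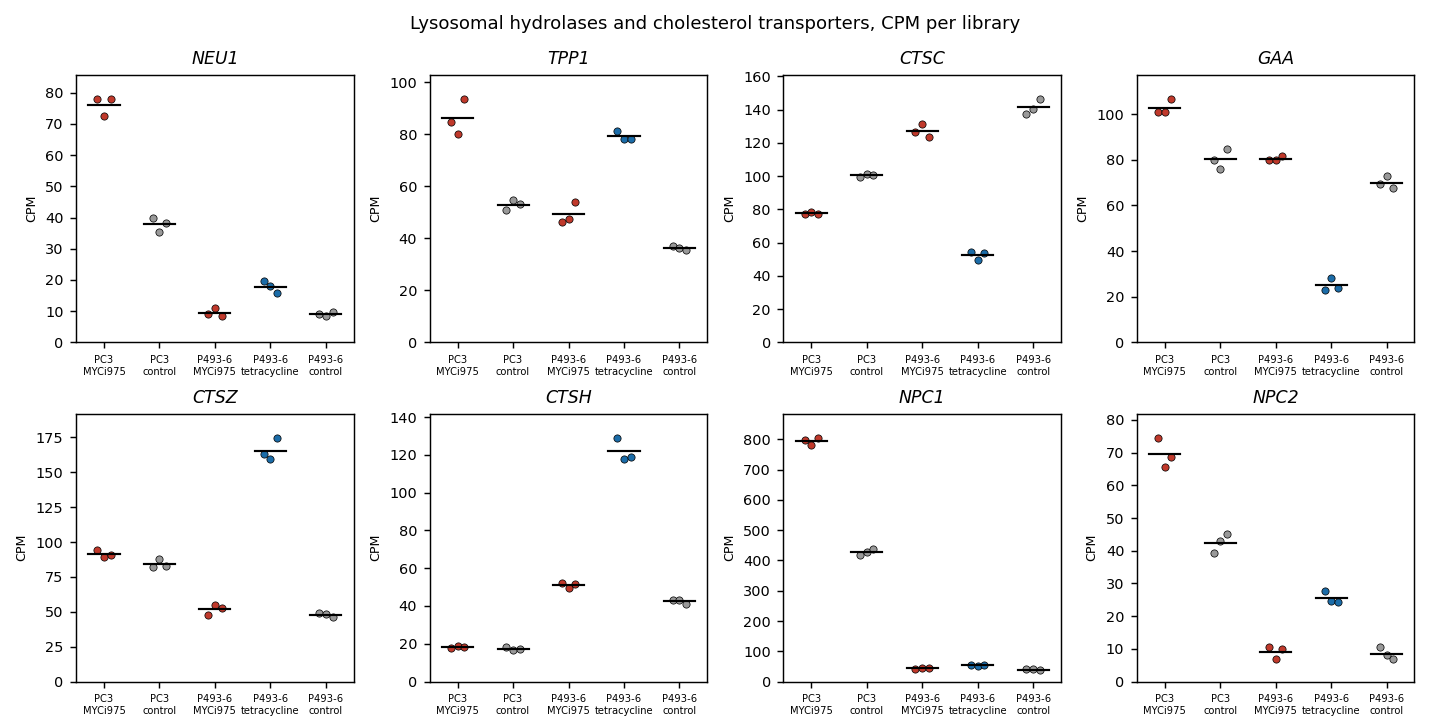
CPM per library (points) and group mean (line) of 6 hydrolases and the cholesterol transporters NPC1 and NPC2, with treated groups left of the control of their line. GAA and CTSC are lowest in P493-6 with tetracycline, at 22.96 to 28.1 and 49.5 to 54.4 CPM, and CTSZ is highest there, at 159 to 174 CPM.

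The lysosomal membrane proteins and cofactors rose in 7 of 7 in PC3 with MYCi975, by 0.20 to 0.89. Of all genes, 29.0% and 30.1% were called higher and lower there. NPC1, the membrane protein through which cholesterol leaves the lysosome, was at 797, 780.4 and 804 CPM with MYCi975, against 419, 429 and 437 CPM in controls (log2 fold change 0.89, SE 0.0284, adjusted p = 2.67e-48). NPC2, the soluble protein that hands cholesterol to NPC1, was at 74.4, 65.5 and 68.6 CPM with MYCi975, against 39.4, 42.96 and 45.1 CPM in controls (log2 fold change 0.70, SE 0.0558, adjusted p = 4.33e-20). Both pairs of groups were far apart. MCOLN1, a calcium channel of the lysosomal membrane, rose by 0.46 (SE 0.0624, adjusted p = 4.83e-10), GRN, the precursor of granulins, by 0.37, LAMP2 by 0.34, PSAP, the precursor of the saposins that help hydrolases reach lipids, by 0.31 and LAMP1, an abundant membrane glycoprotein, by 0.20.

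In P493-6 with MYCi975, 2 of the 7 rose and none fell, where 10.6% and 18.0% of all genes were called higher and lower. GRN was at 229, 229.6 and 233 CPM with MYCi975, against 175, 169.6 and 170.3 CPM in controls (log2 fold change 0.42, SE 0.0431, adjusted p = 1.14e-10). PSAP was at 501, 492 and 481 CPM with MYCi975, against 420.1, 415 and 413 CPM in controls (log2 fold change 0.24, SE 0.0387, adjusted p = 3.96e-06). In both genes the treated libraries lay above every control. NPC1 and NPC2 were not called, at 0.16 (SE 0.0704, adjusted p = 0.0946) and 0.10 (SE 0.143, adjusted p = 0.657), and NPC1 passed the threshold with TMM scaling (adjusted p = 0.0251).

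With tetracycline 4 of the 7 rose and 2 fell, where 36.2% and 41.9% of all genes were called higher and lower. NPC2 was at 27.8, 24.8 and 24.5 CPM with tetracycline, against 10.6, 8.03 and 6.96 CPM in controls (log2 fold change 1.5, SE 0.12, adjusted p = 1.87e-14). PSAP was at 837, 839 and 820.2 CPM with tetracycline, against 420.1, 415 and 413 CPM in controls (log2 fold change 1.00, SE 0.0368, adjusted p = 2.09e-25). The tetracycline libraries lay far above the controls in both, and GRN and NPC1 rose by 0.66 and 0.41. LAMP1 was at 82.6, 95.2 and 85.2 CPM with tetracycline, against 116, 119.5 and 114 CPM in controls (log2 fold change −0.41, SE 0.0556, adjusted p = 1.74e-08). MCOLN1 was at 3.33, 3.92 and 6.37 CPM with tetracycline, against 6.204, 5.49 and 6.55 CPM in controls (log2 fold change −0.39, SE 0.172, adjusted p = 0.0382). LAMP1 had no overlap between groups, whereas MCOLN1 did, and its call was lost with TMM scaling (adjusted p = 0.085) and without control replicate 1, control replicate 3, tetracycline replicate 1 or tetracycline replicate 2 (adjusted p = 0.0778, 0.118, 0.245 and 0.117). LAMP2 was at 0.11 (SE 0.0787, adjusted p = 0.194) and passed the threshold with TMM scaling (adjusted p = 0.0261).

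The vacuolar ATPase is a rotary pump with a V1 domain that splits ATP and a V0 domain in the membrane that carries protons. In PC3 with MYCi975 8 of 16 listed pump genes rose and 2 fell, with a median of 0.12. Without ATP6V0D2, which had to differ for the reason given below, 7 of 15 rose and 2 fell. Of all genes, 29.0% and 30.1% were called higher and lower there. ATP6V1E1, part of the stalks that hold the domains together, was at 98.4, 100.5 and 93.3 CPM with MYCi975, against 74.6, 73.01 and 72.9 CPM in controls (log2 fold change 0.40, SE 0.0459, adjusted p = 8.27e-13). ATP6V1G1, the other stalk subunit, was at 147, 153 and 139 CPM with MYCi975, against 118, 118 and 116 CPM in controls (log2 fold change 0.32, SE 0.0404, adjusted p = 4.71e-11). Their groups did not overlap. ATP6V1E2, an isoform of the first known from testis, was at 9.65, 9.78 and 9.896 CPM with MYCi975, against 12.8, 11.4 and 10.9 CPM in controls (log2 fold change −0.23, SE 0.105, adjusted p = 0.0474). ATP6V0D1, which joins the central shaft to the membrane ring, was at 35, 31.3 and 37.04 CPM with MYCi975, against 41.4, 36.3 and 39.2 CPM in controls (log2 fold change −0.17, SE 0.0649, adjusted p = 0.0167). The groups of ATP6V0D1 overlapped. Its call and that of ATP6V1E2 were lost without control replicate 1 (adjusted p = 0.116 and 0.222) or MYCi975 replicate 2 (adjusted p = 0.186 and 0.079), and that of ATP6V1E2 also with TMM scaling and without any other single library of the 6 except control replicate 3. Without control replicate 1 or MYCi975 replicate 2 the number of members called lower in PC3 was 1 in place of 4.

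ATP6V0D2, the isoform of ATP6V0D1 known from osteoclasts and kidney, was at 3.76, 4.39 and 5.02 CPM in PC3 with MYCi975, against 0.251, 0.195 and 0.683 CPM in controls. It was listed because of the treated libraries, since no control library was above 1 CPM, so it had to differ. The other risers were ATP6V0A2 (0.30), ATP6V1D of the central shaft (0.28), the ring subunit ATP6V0B (0.26) and the small membrane subunits ATP6V0E2 (0.20) and ATP6V0E1 (0.11). ATP6V0E2 has an antisense gene beside it, and no source used here gives the strand setting of the counting. The call of ATP6V0E1 (adjusted p = 0.0489) was lost without control replicate 2 or 3 or MYCi975 replicate 2 or 3 (adjusted p = 0.0903 to 0.225), and that of ATP6V0E2 without control replicate 2 or MYCi975 replicate 3 (adjusted p = 0.0606 and 0.119). ATP6V1A and ATP6V1B2 of the ATP-splitting head, the regulatory ATP6V1C1 and ATP6V1H, ATP6V1F and the ring subunit ATP6V0C were not called, at −0.07 to 0.12. ATP6V1C1 and ATP6V1F passed the threshold with TMM scaling (adjusted p = 0.0453 and 0.039) and with edgeR's quasi-likelihood test on whole reads (adjusted p = 0.0366 and 0.0478). That test used TMM factors too.

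In P493-6 with MYCi975 no pump gene rose and 5 of 16 fell, where 10.6% and 18.0% of all genes were called higher and lower. ATP6V1C1, which controls the coupling of the domains, was at 49.7, 49.2 and 50.1 CPM with MYCi975, against 62.4, 57.7 and 64.97 CPM in controls (log2 fold change −0.31, SE 0.062, adjusted p = 0.000145). ATP6V1D was at 12.3, 14.1 and 11.7 CPM with MYCi975, against 14.2, 16.2 and 16.98 CPM in controls (log2 fold change −0.29, SE 0.107, adjusted p = 0.0349). Both had treated libraries below all controls. ATP6V1E1 fell by 0.28, ATP6V0C by 0.25 and ATP6V1G1 by 0.16 on the log2 scale. The call of ATP6V1D was lost with TMM scaling (adjusted p = 0.0798) and without control replicate 2, control replicate 3, MYCi975 replicate 1 or MYCi975 replicate 3 (adjusted p = 0.109, 0.145, 0.0999 and 0.136). That of ATP6V1G1 was lost with TMM scaling (adjusted p = 0.104) and without control replicate 1, control replicate 2, MYCi975 replicate 2 or MYCi975 replicate 3 (adjusted p = 0.0562 to 0.0962), and that of ATP6V0C without control replicate 3 or MYCi975 replicate 2 (adjusted p = 0.0506 and 0.0778). Over all roles the number of members called lower in this comparison was 5 in place of 8 with TMM scaling and also without control replicate 3.

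With tetracycline 5 of 17 pump genes rose and 9 fell, with a median of −0.18. Without ATP6V1G2, which had to differ for the reason given below, 4 of 16 rose and 9 fell, where 36.2% and 41.9% of all genes were called higher and lower. ATP6V0A1 and ATP6V0A2, forms of the same subunit, went in opposite directions. In the pairs ATP6V1E1 with ATP6V1E2 (−0.18 and −0.03) and ATP6V0E2 with ATP6V0E1 (−0.49 and 0.14) the second was not called. ATP6V0E1 passed the threshold with TMM scaling (0.22, adjusted p = 0.017). ATP6V0A1 (chr17:42458844-42522611, plus strand), a form of the large membrane subunit a, was at 46.9, 45.8 and 52.05 CPM with tetracycline and 19.5, 19.1 and 18.1 CPM with MYCi975, against 18.9, 18.9 and 15.7 CPM in controls (log2 fold change 1.39, SE 0.0874, adjusted p = 1.03e-17). ATP6V0A2 (chr12:123712318-123761755, plus strand), another form of subunit a, was at 48.1, 42.4 and 48 CPM with tetracycline and 76.6, 80.6 and 80.2 CPM with MYCi975, against 74.9, 78.1 and 73.6 CPM in controls (log2 fold change −0.70, SE 0.0654, adjusted p = 1.51e-12). In both genes the tetracycline libraries stood apart and the MYCi975 libraries overlapped the controls. ATP6V0D1 was at 112, 104 and 109.5 CPM with tetracycline, against 52.7, 53.3 and 49.3 CPM in controls, with no overlap (log2 fold change 1.05, SE 0.0591, adjusted p = 2.94e-19). ATP6V1D rose by 0.72 (SE 0.0975, adjusted p = 1.7e-08) and ATP6V1A by 0.35 (SE 0.0566, adjusted p = 8.35e-07). ATP6V0A2 was named beside ATP6V0A1 after its values were seen.

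ATP6V0B, of the proton-carrying ring, was at 24.1, 23.1 and 19.2 CPM with tetracycline, against 39.2, 42.99 and 42.5 CPM in controls (log2 fold change −0.88, SE 0.0868, adjusted p = 6.44e-12). ATP6V1C1 was at 37.4, 37.6 and 34.2 CPM with tetracycline, against 62.4, 57.7 and 64.97 CPM in controls (log2 fold change −0.75, SE 0.0706, adjusted p = 2.28e-12). No treated library reached the lowest control in either. ATP6V0C, the main ring subunit, fell with ATP6V0B, by 0.70, ATP6V1F by 0.73, ATP6V0E2 by 0.49, ATP6V1B2 by 0.40, ATP6V1G1 by 0.23 and ATP6V1E1 by 0.18 on the log2 scale. The call of ATP6V1E1 was lost with TMM scaling and without control replicate 1 or tetracycline replicate 3 (adjusted p = 0.147, 0.0556 and 0.0644), and that of ATP6V0E2 without control replicate 1 (adjusted p = 0.0503). ATP6V1G2, a stalk isoform known from neurons, was at 1.15, 1.72 and 1.01 CPM with tetracycline, against 0.485, 0.409 and 0.716 CPM in controls. It was listed through the treated libraries alone and so had to differ, its call was lost without control replicate 2 or tetracycline replicate 2 (adjusted p = 0.0513 and 0.0759), and its count is uncertain because a readthrough gene overlaps it.

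**Figure D4:**
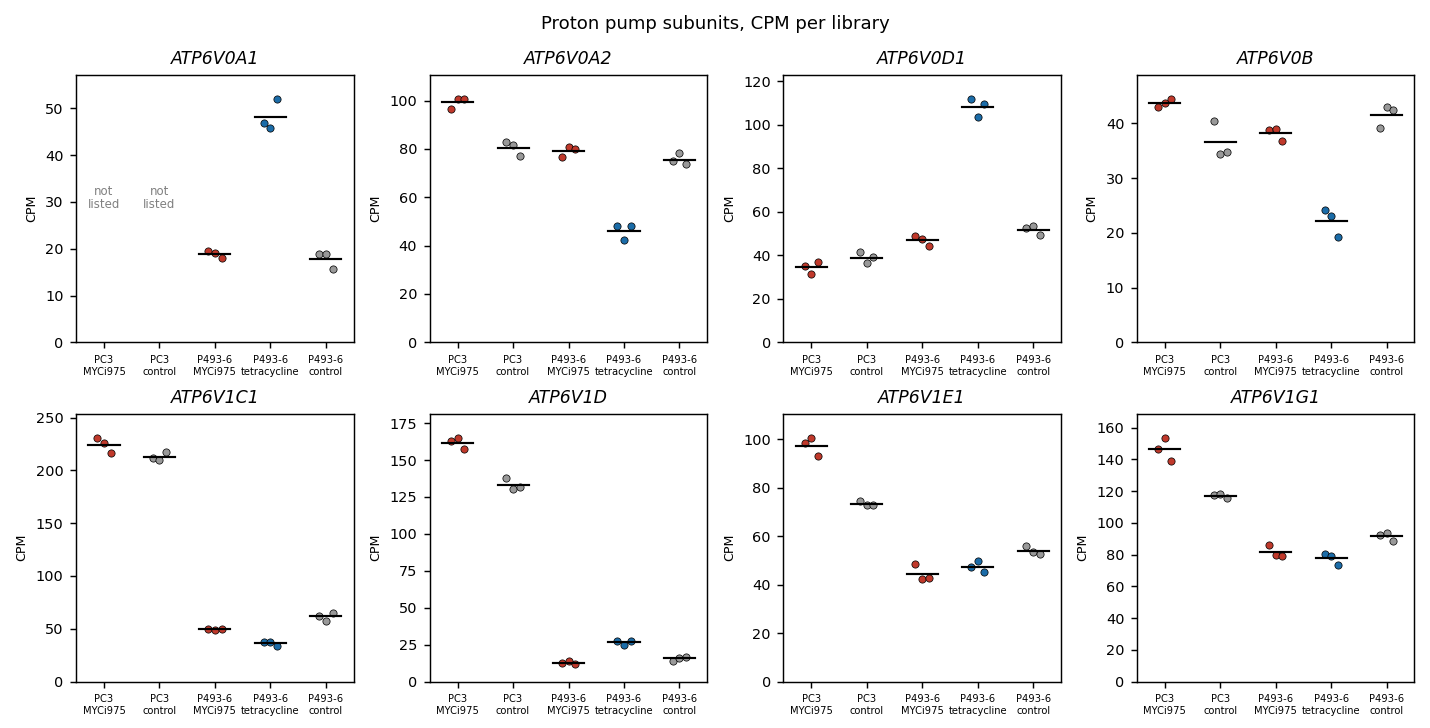
CPM per library (points) and group mean (line) of 8 subunits of the vacuolar proton pump, with treated groups left of the control of their line. ATP6V0A1 and ATP6V0D1 are highest in P493-6 with tetracycline, at 45.8 to 52.05 and 104 to 112 CPM, and ATP6V0A2, ATP6V0B and ATP6V1C1 are lowest there.

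The 10 members with CACGTG in the promoters printed or named above were counted in each comparison. In PC3 with MYCi975 9 of them were called higher and 1, ATP6V0D1, lower, where 29.0% and 30.1% of all genes and 33 and 4 of all 47 listed members were called higher and lower. In P493-6 with MYCi975 1 was called higher and 1 lower, where 10.6% and 18.0% of all genes were. With tetracycline 2 were called higher, NEU1 and ATP6V0D1, and 8 lower, where 36.2% and 41.9% of all genes and 25 and 15 of 49 members were. The 8 were GAA, CTSA, CTSD, LAMP1, MCOLN1, ATP6V0B, ATP6V0E2 and ATP6V1G1. In settings given above, ATP6V0D1 and ATP6V0E2 lost their calls in PC3, and so did ATP6V1G1 in P493-6 with MYCi975. With tetracycline MCOLN1 and ATP6V0E2 lost theirs. These are counts on members chosen by their sequence within a list, with no test. The 13 members without a promoter entry could not be searched. A link between the motif and the direction of change was not tested.

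The 2 treatments of P493-6 were also set against each other directly, in 1 fit of the 9 libraries over the 12860 genes listed in both tables, so that the shared controls do not enter the difference. Of 47 members, 26 were lower with MYCi975 than with tetracycline and 12 were higher, where 33.9% and 42.3% of all genes were called lower and higher. The median difference was −0.23, against 0.08 for all genes, and −0.33 with TMM scaling. CTSZ differed by −1.66 (SE 0.0594, adjusted p = 7.08e-30), NPC2 by −1.40 (SE 0.134, adjusted p = 6.48e-12) and ATP6V0A1 by −1.31 (SE 0.0891, adjusted p = 1.63e-18), all lower with MYCi975. TFEB differed by −0.95 (SE 0.0811, adjusted p = 1.4e-14) and TFE3 by −0.78 (SE 0.0943, adjusted p = 2.69e-10). GAA differed by 1.65 (SE 0.0683, adjusted p = 2.98e-27) and CTSC by 1.26 (SE 0.0532, adjusted p = 7.81e-27), both higher with MYCi975. BECN1, which fell with MYCi975, differed by −0.43 (SE 0.0679, adjusted p = 1.42e-07). Of the pump genes 7 were higher and 5 lower with MYCi975, and of the 7 core genes 6 were lower. Since tetracycline and MYCi975 were each given at 1 dose, nothing can be read about the order of their strengths at other doses.

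The response to MYCi975 differed between the lines. In a fit of 12 libraries over 11240 genes, the change in PC3 minus that in P493-6 was called above 0 for 23 of the 43 shared members and below 0 for 1, where 18.1% and 18.2% of all genes were called above and below. The median difference of the members was 0.24, against 0.01 for all genes. SQSTM1 differed by 1.29 (SE 0.0535, adjusted p = 1.79e-21), WIPI1 by 1.25 (SE 0.221, adjusted p = 1.76e-05), NEU1 by 0.94 (SE 0.124, adjusted p = 7.56e-08) and NPC1 by 0.73 (SE 0.064, adjusted p = 3.68e-12). Among the pump genes ATP6V1E1 differed by 0.68 (SE 0.0792, adjusted p = 5.93e-09), ATP6V1D by 0.57 (SE 0.0951, adjusted p = 7.3e-06) and ATP6V1G1 by 0.48 (SE 0.0667, adjusted p = 2.94e-07), and these 3 rose in PC3 and fell in P493-6. The falls of ATP6V1D and ATP6V1G1 in P493-6 lost their calls with TMM scaling (adjusted p = 0.0798 and 0.104) and without several single libraries. CTSC was the 1 member called with a more negative change in PC3, by −0.21 (SE 0.0622, adjusted p = 0.00599). CTSH was close to it, at −0.20, and was not called (SE 0.1, adjusted p = 0.123). By role, the difference was called above 0 for 6 of 15 pump genes, 5 of 11 hydrolases, 5 of 7 membrane proteins and cofactors and 5 of 7 core genes. The lines were given different doses, 8 µM in PC3 and 6 µM in P493-6, and line and dose cannot be told apart. GRN, PSAP and ATG9A had differences of −0.06, 0.07 and 0.00, with 95% intervals of −0.16 to 0.04, −0.02 to 0.16 and −0.20 to 0.20.

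**Figure D5:**
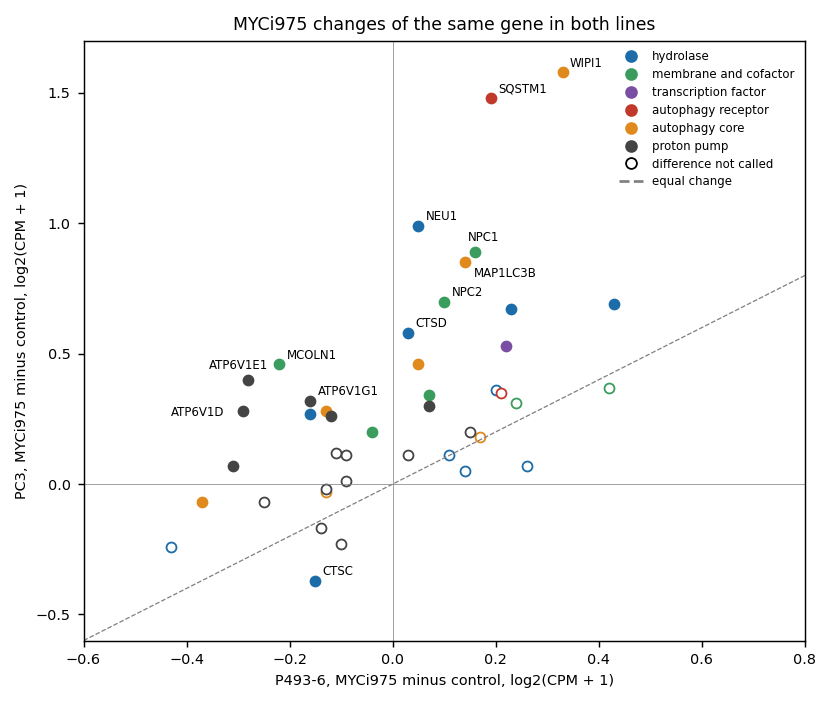
Log2 fold change with MYCi975 in PC3 (vertical axis) and in P493-6 (horizontal axis) for the 43 members listed in both lines, coloured by role and filled where the difference between the lines was called. Most filled points lie above the dashed line of equal change, with SQSTM1 and WIPI1 farthest from it, and CTSC is the filled point below it.

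The lines also differed before treatment. PC3 controls had higher levels than P493-6 controls in 29 of 43 members and lower levels in 8, where 41.8% and 43.0% of 11240 genes were called higher and lower, with a median of 0.66, against −0.04 for all genes. The tables were filtered separately, but CPM is scaled within each library. NPC1 differed by 3.40 (SE 0.0452, adjusted p = 3.56e-40), SQSTM1 by 3.38 (SE 0.0378, adjusted p = 1.13e-42), ATP6V1D by 3.0 (SE 0.0673, adjusted p = 1e-32) and CTSA by 2.36 (SE 0.0503, adjusted p = 1.82e-33). Lower in PC3 controls were among others CTSH, with a difference of −1.23 (SE 0.0709, adjusted p = 5.51e-19), ATP6V1H with −1.12 (SE 0.0791, adjusted p = 4.15e-16) and UVRAG with −1.04 (SE 0.0628, adjusted p = 2.51e-18). Line and any batch of the line cannot be told apart.

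Genes of the same organelle outside the members were counted on lists of other lysosomal genes, other autophagy genes, accessory and assembly factors of the pump, and the Rag, Ragulator and folliculin genes that pass amino acid signals to mTORC1. In PC3 with MYCi975, 20 of 38 other lysosomal genes rose and 5 fell (median 0.23), 11 of 30 other autophagy genes rose and 7 fell (0.03), 4 of 8 assembly factors rose and 1 fell (0.11), and 10 of 13 Rag, Ragulator and folliculin genes rose and none fell (0.34), where 29.0% and 30.1% of all genes were called higher and lower. In P493-6 with MYCi975 the counts were 7 up and 2 down of 37 (−0.02), 1 and 5 of 28 (−0.09), 0 and 1 of 8 (−0.01), and 1 and 3 of 12 (−0.10) in the same order, where 10.6% and 18.0% of all genes were called. With tetracycline they were 18 and 11 of 38 (0.12), 10 and 9 of 28 (0.00), 7 and 1 of 8 (0.50), and 5 and 3 of 12 (0.08), where 36.2% and 41.9% of all genes were called. No test sets these lists apart from all genes.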

How the data were processed

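The 15 libraries were made with a strand-specific exon capture kit (TruSeq RNA Access) from total RNA, per the labels' protocols. Per the submitters' processing notes, STAR, HTSeq, edgeR and hg38 were used, in versions and with settings that no source used here gives. Expression was deposited by the authors as 3 tables of CPM, 1 for each treatment with its control, and each listed gene exceeds 1 CPM in at least 2 libraries. The P493-6 control columns are identical in both of their tables. The deposited log2 fold changes, likelihood ratio scores, p-values and marks of the authors were not used for the results.

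From CPM, log2(CPM + 1) was fitted per table with limma 3.58.1 (trend, robust) in R 4.3.3, and p-values were adjusted by Benjamini-Hochberg over all genes of the fit. Contrasts between treatments and between lines used the genes shared by the tables. edgeR 4.0.16 gave TMM factors for an alternative scaling and a test on whole reads in PC3, which used TMM factors as well. The scripts were tested on simulated data.

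The members and lists were chosen with earlier results of these data known. Values by library are given for the transcription factors, the receptors and, per comparison and role, up to 2 called members in each direction with the largest change and a mean of at least 5 CPM. Other alternatives were a pseudocount of 0.1, the 5 CPM minimum for all genes, a replicate block, all 9 P493-6 libraries together, and leaving out each library. Of the 52 members, CTSS, HEXA, TFEB, ATP6V0A1 and ATP6V1G2 were not listed in PC3, CTSL, MITF and ATP6V0D2 in P493-6, and GABARAPL1 and ATP6V1G2 in the P493-6 table of MYCi975.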

Additional observations from a re-analysis of the deposited data

Results flagged for a closer look

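A difference between the lines in the response to MYCi975 (change in PC3 minus change in P493-6, log2, interaction term in limma, adjusted p below 0.05) was found for 24 members. Among the autophagy genes it was 1.29 for SQSTM1, 1.25 for WIPI1, 0.72 for MAP1LC3B, 0.41 for ULK1, 0.40 for UVRAG and 0.30 for BECN1. TFE3 differed by 0.31. Among the hydrolases the difference was 0.94 for NEU1, 0.55 for CTSD, 0.44 for CTSB, 0.43 for CTSA, 0.27 for TPP1 and −0.21 for CTSC. Among the membrane proteins it was 0.73 for NPC1, 0.68 for MCOLN1, 0.60 for NPC2, 0.27 for LAMP2 and 0.24 for LAMP1. Among the pump genes it was 0.68 for ATP6V1E1, 0.57 for ATP6V1D, 0.48 for ATP6V1G1, 0.38 for ATP6V1C1, 0.37 for ATP6V0B and 0.23 for ATP6V0A2.

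The calls of NPC2, LAMP2 and TPP1 changed with the settings. NPC2 lost its call with a pseudocount of 0.1 CPM (0.60, adjusted p = 0.0667) and without PC3 control replicate 1 or 2, PC3 MYCi975 replicate 1 or P493-6 control replicate 2 (adjusted p = 0.0515 to 0.0654). LAMP2 lost it without PC3 control replicate 1 or 3, PC3 MYCi975 replicate 2 or 3, P493-6 control replicate 2 or P493-6 MYCi975 replicate 2 (adjusted p = 0.0572 to 0.103). TPP1 lost it without PC3 MYCi975 replicate 3 or P493-6 MYCi975 replicate 1 (adjusted p = 0.0807 and 0.0556).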

How the results depend on the processing

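The number of members called lower in PC3 was 4 and ranged from 1 to 3 when 1 library was left out, and that in P493-6 with MYCi975 was 8 and ranged from 5 to 7, with 5 under TMM scaling. The cause was not tested. The median of the members with tetracycline was 0.35 and became 0.176 with a 5 CPM minimum and with all 9 P493-6 libraries fitted together, both of which leave out the low GABARAPL1 and ATP6V1G2. The median difference of MYCi975 from tetracycline was −0.23 and became −0.334 with TMM scaling. With 1 library left out, members called higher numbered 31 to 34 in PC3, 7 to 11 in P493-6 with MYCi975 and 25 with tetracycline, where those called lower numbered 12 to 15. The direct contrast gave 12 or 13 higher and 24 to 26 lower, the line difference 21 to 24 above 0, and the control contrast 29 or 30 higher and 7 or 8 lower.

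Replicate numbers did not mark pairs: deviations of samples with the same number correlated at −0.0711 to 0.013. With the replicate block, 34 members were higher and 4 lower in PC3, and 8 and 8 in P493-6 with MYCi975, where NBR1 was no longer called (adjusted p = 0.0584), while ATP6V1F was called in PC3 (adjusted p = 0.0308). The block changed no other call of a member. In PC3 100% of the CPM values gave whole reads within 0.001 reads, and edgeR's quasi-likelihood test on them called 4051 genes higher and 4052 lower, with 35 and 4 members. That test also used TMM factors and was not run in P493-6.

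Signs turned in 34 settings over 21 member values, none of them called and each within 0.10 of 0 as reported. With TMM scaling they were LAMP1 at 0.01 with MYCi975 in P493-6, ATP6V1H, GLA and ATP6V1E2 at 0.07, 0.05 and 0.04 with tetracycline, and ATP6V1G1, ATG9A and HEXA at −0.03, −0.09 and −0.08 in the direct contrast. With 1 library left out, PC3 gave ATP6V1H from −0.07 to 0.01, ATG2A from −0.07 to 0.03 and ATP6V1B2 from −0.03 to 0.04. P493-6 with MYCi975 gave CTSD from −0.04 to 0.09, ULK1 from −0.01 to 0.14, NPC2 from −0.02 to 0.27 and NEU1 from −0.05 to 0.12. Tetracycline gave ATP6V1H from −0.05 to 0.02, GLA from −0.08 to 0.05 and ATP6V1E2 from −0.11 to 0.02. The direct contrast gave ATG9A from −0.04 to 0.08, HEXA from −0.01 to 0.06, GLB1 from −0.1 to 0.03 and ATP6V1E2 from −0.13 to 0.01. The line difference gave ATP6V0D1 from −0.09 to 0.03 and ATP6V0E2 from −0.05 to 0.12. The control contrast gave BECN1 from −0.05 to 0.05, ATP6V1F from −0.11 to 0.07 and GLA from −0.12 to 0.01.

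Counting error limits the members at a few CPM (WIPI1, MCOLN1, ATP6V1E2 and NPC2 in P493-6), and with 3 libraries a group a value that was not called is not shown to be unchanged.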

Other observations

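Outside the members, a few genes of the same pathways moved further than most members did. They were chosen after their values were seen. Whether any of them was listed through the treated libraries alone was not checked. RRAGD in PC3, SMPD1 with tetracycline and OPTN in P493-6 with MYCi975 had SEs of 0.194, 0.193 and 0.178, above that of ATP6V0D2 in PC3 (0.177). The limit set on ATP6V0D2 may therefore hold for them too, and for OPTN with tetracycline, which was set against the same controls. OPTN, an autophagy receptor like SQSTM1, changed by 1.53 in PC3 with MYCi975 (SE 0.0518, adjusted p = 3.31e-46) and by 3.36 in P493-6 with tetracycline (SE 0.13, adjusted p = 1.14e-24), and was at 0.40 in P493-6 with MYCi975 (SE 0.178, adjusted p = 0.0862). RRAGD, a Rag GTPase of amino acid signalling at the lysosome, changed by 1.03 in PC3 with MYCi975 (SE 0.194, adjusted p = 2.52e-06), by 0.18 in P493-6 with MYCi975 (SE 0.0686, adjusted p = 0.0401) and by −1.32 with tetracycline (SE 0.0876, adjusted p = 5.59e-17). With tetracycline the acid sphingomyelinase SMPD1 changed by 2.04 (SE 0.193, adjusted p = 2.84e-12), the membrane protein LAPTM4B by −2.42 (SE 0.0598, adjusted p = 2.59e-31) and the thioesterase PPT1 by −1.61 (SE 0.0565, adjusted p = 4.02e-26), all by limma. LAPTM4B was also lower in PC3 with MYCi975 (−0.50, SE 0.0402, adjusted p = 2.48e-20), and SMPD1 and PPT1 were called in neither line with that compound.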
